A study of Homo sapiens with 2 samples.

Results

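The ERK output genes described here are 10 genes reported to be induced by the BRAF-MEK-ERK cascade. Whether the cascade drove them in these cells was not tested. These genes were listed by name from what is known of the pathway, with earlier results of these data already known. They were the MAP kinase phosphatases DUSP4 and DUSP6, the membrane-proximal inhibitors SPRY2, SPRY4 and SPRED1, the ETS factors ETV4 and ETV5, and the early response genes PHLDA1, EGR1 and FOSL1. All 10 were found among the 54261 genes of the count table. They were measured in 2 RNA-seq libraries made from RKO, a human colon carcinoma cell line that carries a mutant BRAF. Cells of the si-NC group were transfected with a control siRNA, and cells of the si-SRSF2 group with an siRNA against the splicing factor SRSF2. Both groups were grown in DMEM with fetal bovine serum, and the sample labels gave no time between transfection and harvest. The comparison asked how the transcriptome of this line differed once SRSF2 was depleted. Each group had 1 library, so no difference had a replicate check, and every comparison below is between these 2 libraries.

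In the ERK cascade, growth factor receptors load RAS with GTP, RAS activates the RAF kinases, RAF phosphorylates MEK, and MEK phosphorylates ERK. Active ERK induces transcription factors of the ETS, AP-1 and EGR families together with its own inhibitors, among them phosphatases that dephosphorylate ERK and Sprouty and SPRED proteins that act at the level of RAS. In colon cancer cells with a mutant BRAF the kinase signals without RAS, and the mRNAs of these inhibitors and factors are commonly read as a measure of ERK output.

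The si-NC library was the deeper, with 19931360 counts over 19882 genes, and the si-SRSF2 library had 14512802 over 19467 genes. Levels are given as CPM, counts scaled to a common library size by TMM, and differences as the log2 ratio of si-SRSF2 over si-NC after adding 0.5 CPM to both. The 95% Clopper-Pearson interval beside a ratio is that of the ratio with nothing added and covers counting error only, so for genes of a few CPM it is not centred on the ratio printed. SRSF2 itself had 1964 counts (si-NC) and 713 counts (si-SRSF2), or 98.5 and 49.1 CPM, with a log2 ratio of -0.997 (interval -1.13 to -0.88). The targeted gene was thus lower in the library labelled for its depletion. MFSD11 overlaps SRSF2 on the opposite strand and had 225 and 119 counts, and whether the counting used strand was not stated.

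Among 8 colon epithelium markers, the keratins KRT8 (547 and 618 counts) and KRT18 (632 and 477), the adhesion molecule EPCAM (179 and 147) and the intestinal factor CDX2 (212 and 158) were present in si-NC and si-SRSF2. KRT20 had no count in either library, KRT19 and VIL1 had 1 count in each, and CDH1 had 10 and 6. KRT8 was at least 1.5-fold higher in si-SRSF2, with a log2 ratio of 0.62. Of the mesenchymal gene markers, VIM had 558 and 383 counts, each of the 3 collagen genes had at most 13, and DCN and LUM had at most 1. No leukocyte or endothelial marker had more than 2. Both libraries were bulk RNA of the RKO line, so a marker's counts are an average over its cells.

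The siRNAs are shown because their seeds, bases 2 to 8, can act on other transcripts. Both strands of each duplex are given 5′ to 3′ without overhangs, with the seed in capitals. The listed si-SRSF2 strand is found in full at positions 769 to 787 of the 1888 bases of the canonical SRSF2 transcript and in no other canonical transcript of 61228, so the complementary strand pairs with the SRSF2 mRNA.
si-NC listed strand: uUCUUCGAacgugucacgu
si-NC complementary strand: aCGUGACAcguucgaagaa
si-SRSF2 listed strand: uCCAAAUCcaggucgcgau
si-SRSF2 complementary strand: aUCGCGACcuggauuugga

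Sites for these seeds were sought in the 3′ UTR of the GENCODE canonical transcript of 10426 tested genes. The site of the complementary si-SRSF2 strand, GTCGCGA, was in 27 of them (0.259%) and in none of the 10 ERK output genes. The site of the listed si-SRSF2 strand, GATTTGG, was in 1538 (14.8%) and in 2 members, ETV5 and EGR1. The sites of the si-NC strands were in 1.66% and 3.08% of the genes and in no member. A site here is a match of 7 letters and not a measured interaction.

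All 10 members passed the filter, a mean CPM of at least 1 across both libraries, as did 12620 genes in all. Their log2 ratios did not move one way. In si-SRSF2, 6 members were higher and 4 lower, from -0.34 for ETV5 to 0.92 for DUSP4, and their median log2 ratio was 0.07 against -0.02 for all genes tested. Of all genes tested, 5830 were higher (46.2%) and 6790 lower. SPRY2 and DUSP4 were at least 1.5-fold higher, 2 of 10 members against 4.18% of all genes tested, and no member was at least 1.5-fold lower, against 3.52%. No member was at least 2-fold higher or lower, against 0.848% and 0.499% of all genes tested. The interval lay above no change for 5 members (21.0% of all genes tested) and below it for 4 (26.7%), and for EGR1 it held no change.

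**Figure D1:**
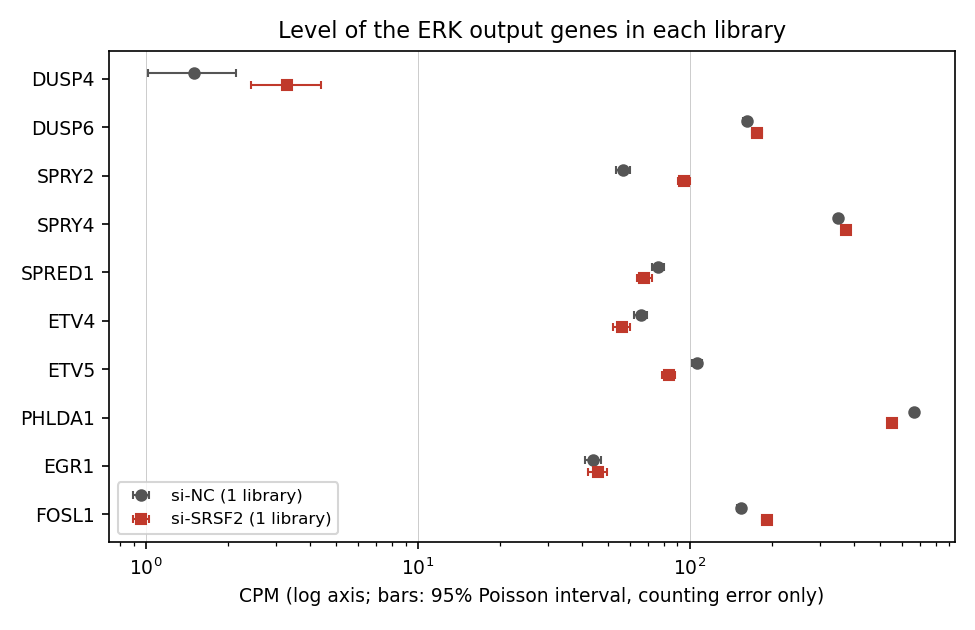
Level of each ERK output gene in CPM (log axis) in the si-NC library (circles) and the si-SRSF2 library (squares), with 95% Poisson intervals for counting error. SPRY2 stood at 56.8 and 95.3 CPM with intervals apart, and EGR1 at 44.0 and 45.7 CPM with overlapping intervals.

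**Figure D2:**
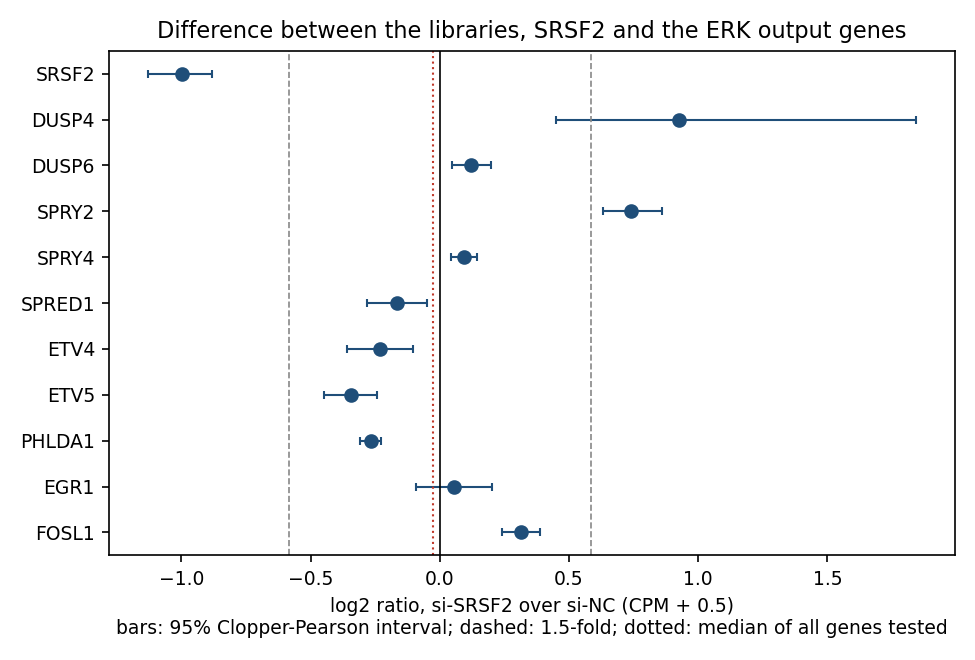
Log2 ratio of si-SRSF2 over si-NC for SRSF2 and the 10 ERK output genes, with 95% Clopper-Pearson intervals. SPRY2 and DUSP4 were the members past the dashed 1.5-fold lines, and the interval of DUSP4, from 0.45 to 1.84, was the widest.

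The phosphatases differed most in level. DUSP6, a cytoplasmic phosphatase selective for ERK, had 3235 counts (si-NC) and 2563 counts (si-SRSF2), which corresponded to 162 and 177 CPM. Its log2 ratio was 0.12 (interval 0.05 to 0.20), and 71.3% of all genes tested had a lower ratio. DUSP4, a nuclear phosphatase for ERK and other MAP kinases encoded at chr8:29333064-29350684 of GRCh38, had 30 counts (si-NC) and 48 counts (si-SRSF2). These were 1.51 and 3.31 CPM, a log2 ratio of 0.92 with an interval of 0.45 to 1.84. DUSP4 was therefore low, with a mean of 2.41 CPM against the filter of 1 CPM, and its ratio depended on the amount added to the CPM. It was 1.14 with nothing added, 1.09 with 0.1 CPM and 0.60 with 2 CPM, above 1.5-fold with each and above 2-fold with nothing or 0.1 CPM added. Of its 8 nearest protein-coding genes on chromosome 8, 7 had counts, up to 4100 in si-NC and 2670 in si-SRSF2. Within the pair of phosphatases, which needs no scaling between libraries, DUSP4 took 0.919% of 3265 counts in si-NC (0.621% to 1.31%) and 1.84% of 2611 in si-SRSF2 (1.36% to 2.43%). The intervals did not overlap.

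Of the Sprouty and SPRED members, SPRY2 was apart from the others. Sprouty proteins restrain signalling from receptor tyrosine kinases to RAS. SPRY2, at chr13:80335976-80341126, had 1133 counts in si-NC and 1383 in the shallower si-SRSF2 library, or 56.8 and 95.3 CPM. The log2 ratio was 0.74 (interval 0.63 to 0.86), 1.67-fold with 0.5 CPM added, and 97.6% of all genes tested had a lower ratio. With the whole interval above 1.5-fold, SPRY2 was the only member for which counting error alone could not bring the ratio under that threshold.

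SPRY4 was the more abundant Sprouty gene, with 6999 and 5437 counts, or 351 and 375 CPM. Its log2 ratio was 0.09 (0.04 to 0.14). SPRY2 took 13.9% of the 8132 counts of the pair in si-NC (13.2% to 14.7%) and 20.3% of 6820 in si-SRSF2 (19.3% to 21.3%). Hence the 2 Sprouty genes did not change in proportion. SPRED1, which brings the RAS GAP neurofibromin to the membrane, had 1517 and 985 counts, 76.1 and 67.9 CPM. It was lower in si-SRSF2 by a small margin, with a log2 ratio of -0.16 (-0.28 to -0.05).

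The 2 ETS members were both lower in si-SRSF2. ETV4 and ETV5 are transcription factors of the PEA3 group and are long known as ERK-responsive genes. ETV4 had 1313 and 814 counts, 65.9 and 56.1 CPM, with a log2 ratio of -0.23 (-0.36 to -0.11). ETV5 had 2118 and 1213 counts, 106 and 83.6 CPM, with a log2 ratio of -0.34 (-0.45 to -0.24), the lowest of the members. Of all genes tested, 21.0% had a lower ratio than ETV4 and 11.8% a lower ratio than ETV5. ETV4 took 38.3% of the 3431 counts of the pair in si-NC (36.6% to 39.9%) and 40.2% of 2027 in si-SRSF2 (38.0% to 42.3%), so a difference in their proportion was not detectable at this depth. Both genes overlap another gene in the annotation. ETV4 overlaps DHX8 on the opposite strand, with 1275 and 1019 counts, and ETV5 overlaps DGKG on its own strand, with 503 and 332. How reads in the shared stretches were assigned is not known.

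**Figure D3:**
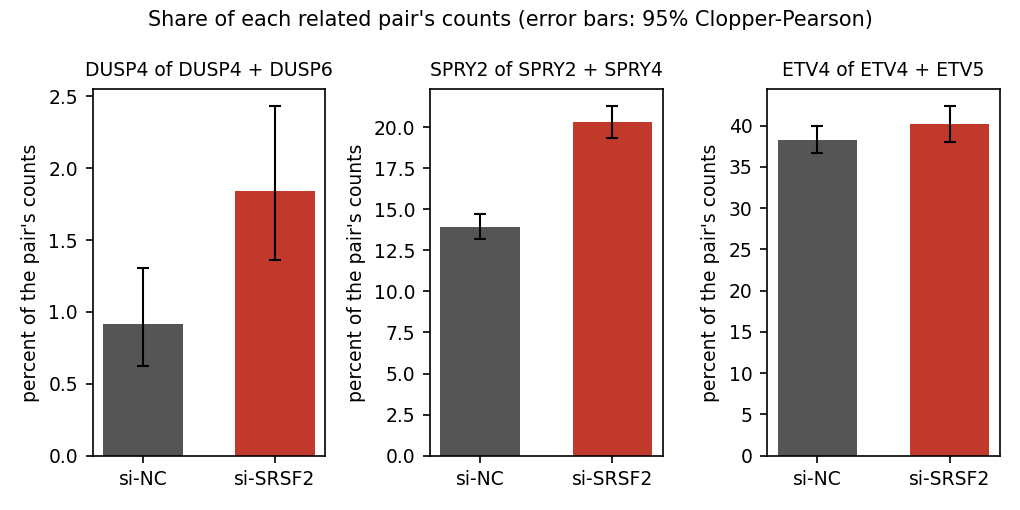
Share of the counts of each related pair, in percent, that fell on DUSP4 (with DUSP6), SPRY2 (with SPRY4) and ETV4 (with ETV5) in the si-NC and si-SRSF2 libraries, each panel on its own scale from 0. The error bars are 95% Clopper-Pearson intervals, which overlapped for ETV4 (38.3% and 40.2%) and not for DUSP4 or SPRY2.

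The sites for the listed si-SRSF2 seed in ETV5 and EGR1 are shown with 10 bases on either side, the match in capitals. They lie in the 3′ UTR at positions 2502 to 2508 and 3671 to 3677 of the 4082 bases of the canonical ETV5 transcript and at 2777 to 2783 of the 3137 bases of EGR1.
ETV5 first site: gttttgccctGATTTGGgggattgttt
ETV5 second site: atgctgtataGATTTGGttttcctttc
EGR1 site: agggagtgatGATTTGGgggaggcttt

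ETV5 had the lowest log2 ratio of the members and EGR1 had no detectable difference, so the 2 members with such sites did not have like ratios. Their part in the ratios was not tested.

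The 3 early response members did not move together. PHLDA1, a protein with a pleckstrin homology-like domain, was the member with the most counts, 13326 with si-NC and 8065 with si-SRSF2, which came to 669 and 556 CPM. Its log2 ratio of -0.27 had a narrow interval (-0.31 to -0.23). EGR1, a zinc finger factor induced within minutes of ERK activation, had 877 and 664 counts, 44.0 and 45.7 CPM, and a log2 ratio of 0.06 (-0.09 to 0.20). FOSL1 encodes FRA1, an AP-1 subunit that ERK also stabilizes as a protein. It had 3071 and 2781 counts, 154 and 192 CPM, and a log2 ratio of 0.31 (0.24 to 0.39), so that 87.8% of all genes tested had a lower ratio. Of the members below 1.5-fold, FOSL1 had the highest log2 ratio.

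The promoters of EGR1 and PHLDA1 are given because they held motifs of factors that ERK acts on, in a member with no detectable difference and a member that was lower. RefSeq promoter sequences of GRCh38.p14 were matched for 6 of the 10 members, DUSP6, SPRY2, SPRY4, SPRED1, PHLDA1 and EGR1, and not for DUSP4, ETV4, ETV5 and FOSL1. The 120 bases before the start are printed 5′ to 3′ on the strand of the gene. For EGR1 (chr5:138465359-138465478, plus strand) the capitals mark 2 CArG boxes, the element bound by serum response factor. For PHLDA1 (chr12:76031777-76031896, minus strand) they mark an ETS motif, read on the other strand, and a GC box.
EGR1 promoter: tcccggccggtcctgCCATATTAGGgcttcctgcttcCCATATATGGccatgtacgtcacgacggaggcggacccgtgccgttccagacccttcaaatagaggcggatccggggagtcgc
PHLDA1 promoter: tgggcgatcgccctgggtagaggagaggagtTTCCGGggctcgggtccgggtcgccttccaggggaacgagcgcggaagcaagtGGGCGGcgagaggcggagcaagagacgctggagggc

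Motifs were sought on both strands of the 250 bases before each start, among 35114 promoters. The CArG box was in 1.16% of all promoters and in EGR1, where the 2 boxes lay 105 to 96 and 83 to 74 bases before the start. The ETS motif was sought only as the exact letters CCGGAA, so other forms of it were not counted. It was in 14.5% of promoters and in PHLDA1, 89 to 84 bases before the start. The GC box GGGCGG was in 42.6% of promoters and in SPRY4, SPRED1 and PHLDA1, and the EGR motif GCGNGGGCG, which can share bases with a GC box, was in 8.41% and in SPRY4 and EGR1. The AP-1 motif TGANTCA (6.57%) and the CRE motif TGACGTCA (1.65%) were in none of the 6 sequences matched. For SPRY2 and SPRY4 the sequence matched lay inside the annotated gene, so the bases before their outermost annotated start were not searched. These are matches of letters only.

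Levels were compared between members per kilobase of the canonical transcript. In si-NC, PHLDA1 came highest with 113 CPM per kb, followed by FOSL1 with 90.5, SPRY4 with 71.6 and DUSP6 with 44.8. ETV4 (28.2), ETV5 (26.0) and SPRY2 (24.9) were close, and the 95% Poisson intervals of neighbours overlapped. With the longest annotated transcript SPRY2 came to 21.0 CPM per kb, and its interval (19.8 to 22.3) lay below that of ETV5 (24.9 to 27.2). EGR1 followed with 14.0, SPRED1 with 10.5 and DUSP4 with 0.271 CPM per kb. In si-SRSF2, FOSL1 (112.6) stood above PHLDA1 (94.0), and SPRY2, at 41.7 CPM per kb, stood at rank 5 in place of rank 7, with each of the 3 lengths used. SPRY4 (76.4), DUSP6 (48.7), ETV4 (24.0), ETV5 (20.5), EGR1 (14.6), SPRED1 (9.34) and DUSP4 (0.596) kept their order among themselves. In that library no interval overlapped that of the next member. With the union of annotated exons in place of the canonical transcript, EGR1 (14.6 CPM per kb) ranked above ETV5 (14.5) in si-SRSF2, with overlapping intervals.

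The members were also set beside tested genes of like abundance, in ranges of mean CPM chosen after the values were seen. Among the 3889 genes from 50 to 200 CPM, the central 90% of log2 ratios ran from -0.38 to 0.32. SPRY2 lay well above that span, since 34 genes of the range (0.874%) were at least 1.5-fold higher in si-SRSF2. FOSL1 and ETV5 lay just inside it, at opposite ends. Among the 2128 genes from 1 to 5 CPM the span was wider, from -0.78 to 0.92, and 15.3% of genes were at least 1.5-fold higher. DUSP4 sat at its upper edge, so a ratio of its size was more common at its level than one of the size of SPRY2 was at 50 to 200 CPM. The other 8 members lay inside the span of their range. Intervals away from no change were more common at high levels, 24.0% above and 35.3% below from 50 to 200 CPM and 34.5% above and 40.0% below from 200 to 1000 CPM, which bears on the 5 and 4 members counted by that rule.

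**Figure D4:**
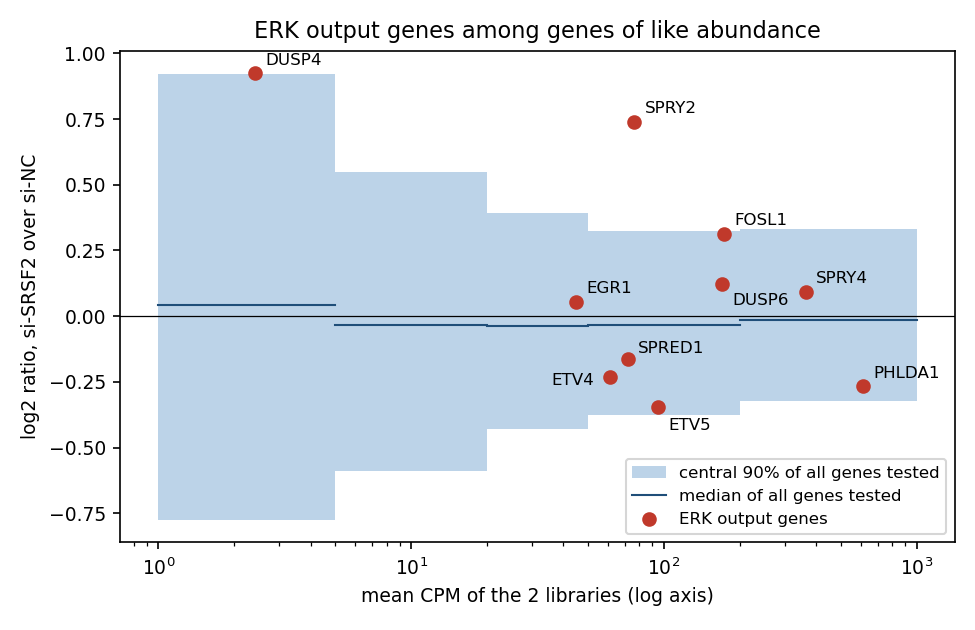
Log2 ratio of si-SRSF2 over si-NC against mean CPM (log axis) for the 10 ERK output genes (points), over the central 90% (shaded) and the median (line) of all tested genes in 5 ranges of mean CPM. SPRY2, at 0.74, lay above the span of -0.38 to 0.32 for its range, and DUSP4, at 0.92, lay at the edge of a wider span.

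The rest of the pathway was described from 9 further lists of 108 genes in all, of which 96 were tested. Together they had a median log2 ratio of -0.05, with 37 genes higher (38.5%) and 59 lower in si-SRSF2, beside 46.2% higher among all genes tested. At least 1.5-fold, 1 gene was higher and 7 were lower, against 4.18% and 3.52% of all genes tested. The 12 reference genes had a median of 0.05, none past 1.5-fold, with GAPDH at 3784 and 3831 CPM (log2 ratio 0.02), PGK1 at 2598 and 2725 CPM (0.07) and RPLP0 at 2603 and 2459.6 CPM (-0.08).

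**Figure D5:**
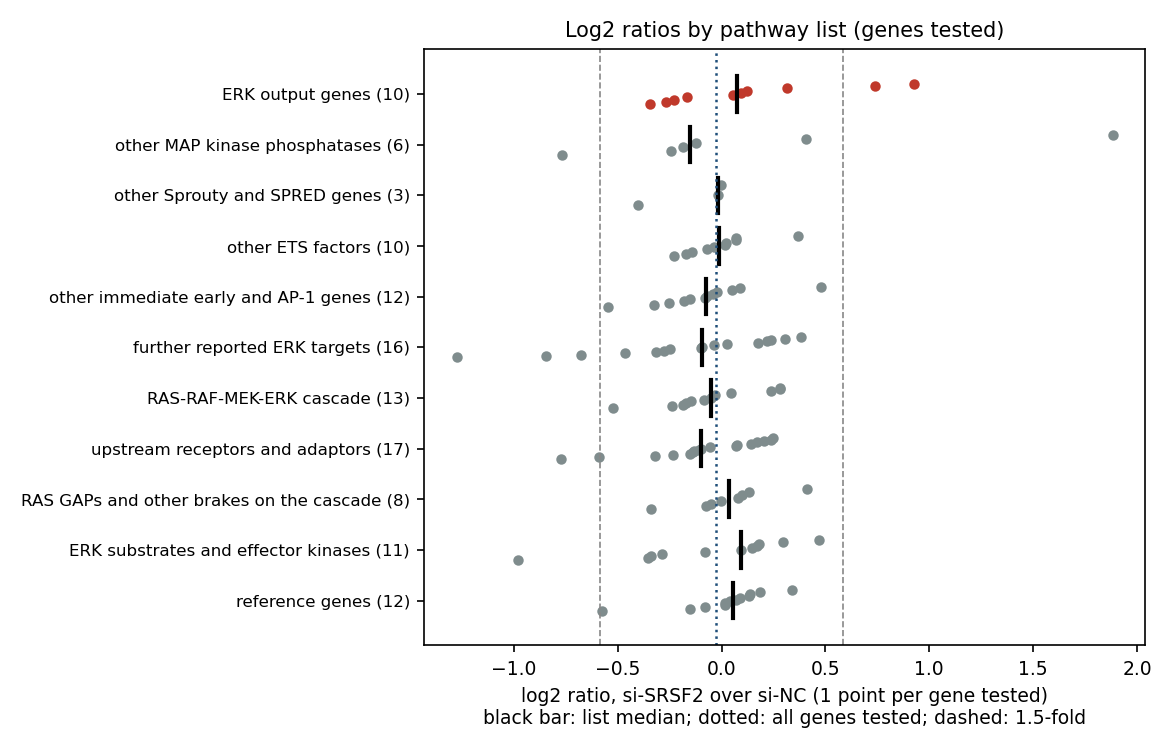
Log2 ratio of si-SRSF2 over si-NC for each tested gene (points) of the ERK output genes, 9 further pathway lists and the reference genes, with the number tested in parentheses, the median of each list (black bar) and of all genes tested (dotted line). List medians lay between -0.15 and 0.09, and the genes past the dashed 1.5-fold lines included HBEGF at -1.27 and DUSP16 at 1.88.

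The closest relatives of the members held no group in which most genes were 1.5-fold higher. Among the other MAP kinase phosphatases, 6 of 8 were tested, with a median log2 ratio of -0.15. DUSP1, a nuclear phosphatase that favours p38 and JNK, had 2411 counts (si-NC) and 1028 counts (si-SRSF2), 121 and 70.8 CPM, a log2 ratio of -0.77 (-0.88 to -0.67). DUSP16, which acts on JNK, had 8 and 41 counts, 0.401 and 2.82 CPM, a log2 ratio of 1.88 (1.70 to 4.12), and it was the gene past 2-fold in this list. It passed the filter only through its level in si-SRSF2, and its log2 ratio with nothing added was 2.82. The abundant DUSP5, a nuclear ERK phosphatase, had 225 and 206 CPM (-0.12), and DUSP7 had 49.7 and 43.7 CPM (-0.18).

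Of the other Sprouty and SPRED genes, 3 of 4 were tested and none passed 1.5-fold. SPRY1 had 25.0 and 18.8 CPM in si-NC and si-SRSF2, a log2 ratio of -0.40 (-0.63 to -0.19), opposite in sign to SPRY2. SPRED2 had 122 and 121 CPM (-0.02) and SPRED3 had 7.38 and 7.37 CPM (-0.0007). All 10 other ETS factors were tested and none passed 1.5-fold, with a median of -0.01. The abundant ones were ETS1, a founding member of the family, at 674 and 642 CPM (-0.07), and the serum response factor partners ELK3 at 289 and 292 CPM (0.01) and ELK4 at 149.6 and 157 CPM (0.07).

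Of 15 other immediate early and AP-1 genes, 12 were tested, with a median of -0.08 and none past 1.5-fold. JUN, the main partner of FRA1 in AP-1, had 541 and 514 CPM (log2 ratio -0.07), MYC had 265 and 261 CPM (-0.02), and SRF, which binds the CArG box, had 64.1 and 53.8 CPM (-0.25). The 3 genes not tested were EGR2, EGR4 and IER3, which had few counts or none.

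Of 20 further reported ERK targets, 16 were tested, with a median of -0.10, and 3 were at least 1.5-fold lower and none higher. HBEGF, a ligand of the EGF receptor, had 1421 and 424 counts, 71.3 and 29.2 CPM, a log2 ratio of -1.27 (-1.45 to -1.13). It was the gene of these 20 past 2-fold. CXCL8, a neutrophil chemokine, had 326 and 146 counts, 16.4 and 10.1 CPM (-0.67, interval -0.99 to -0.42). TRIB2, a pseudokinase, had 87 and 32 counts, 4.37 and 2.20 CPM (-0.85, interval -1.62 to -0.39). Abundant targets differed less. The survival factor MCL1 had 2086 and 1722 CPM (-0.28) and the calcium-binding protein S100A6 had 558 and 523 CPM (-0.09).

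The cascade itself held no gene past 1.5-fold. Of 15 RAS, RAF, MEK and ERK genes and their scaffolds, 13 were tested, with a median of -0.05. The interval lay above no change for 2 and below it for 6, or 61.5% together, beside 47.6% of all genes tested. BRAF, the mutant kinase of this line, had 3165 and 2256 counts, 159 and 155 CPM, a log2 ratio of -0.03 (-0.11 to 0.05). MAP2K1, which encodes MEK1, had 171 and 161 CPM (-0.08). PPP1CB, the catalytic subunit of the SHOC2 phosphatase complex that activates RAF, had 248 and 172 CPM (-0.52, interval -0.60 to -0.46).

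Upstream, all 17 receptors and adaptors were tested, with a median of -0.10, and 2 were at least 1.5-fold lower. EGFR, the EGF receptor, had 994 and 421 counts, 49.9 and 29.0 CPM, a log2 ratio of -0.77 (-0.95 to -0.62). GAB1, a docking protein for SHP2 and PI3K, had 344 and 164 counts, 17.3 and 11.3 CPM (-0.59, interval -0.89 to -0.34). At 1.505-fold lower, GAB1 lay at the edge of the threshold, and another scaling or amount added could end this call. The abundant adaptor SHC1 had 476 and 549 CPM (0.20). The phosphatase SHP2 gene PTPN11 had 334 and 351 CPM (0.07), and the ubiquitin ligase CBL had 314 and 266 CPM (-0.24).

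The 8 RAS GAPs and other brakes had a median of 0.04, none past 1.5-fold. RASA1, a RAS GAP, had 190.1 and 180.3 CPM (-0.08), the RAF inhibitor PEBP1 had 169 and 179 CPM (0.08), and PEA15, which holds ERK in the cytoplasm, had 230.4 and 229.9 CPM (-0.003). The 11 ERK substrates and effector kinases had a median of 0.09, and RPS6KA2, which encodes a ribosomal S6 kinase, was the gene past 1.5-fold. It had 45 and 13 counts, 2.26 and 0.896 CPM, a log2 ratio of -0.98 (-2.35 to -0.42), and passed the filter only through its level in si-NC. Of its list, RPS6KA3 had 140.4 and 133 CPM (-0.08), FOXO3, a forkhead factor that ERK marks for degradation, had 142 and 111 CPM (-0.36), and CIC, the repressor of ETV4 and ETV5 that ERK relieves, had 91.0 and 101 CPM (0.15).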

How the data were processed

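The authors prepared stranded poly(A) libraries, sequenced pairs of 150 bp, aligned them with HISAT2 2.0.4 to GRCh38 and deposited raw HTSeq counts per gene symbol. The strand setting of the counting was not given in the sources used here. Their methods named an Ensembl annotation, but many listed symbols have the LOC form that comes from NCBI, so the gene models behind the counts are uncertain, and with them the levels per kilobase and the values listed at 0. Counts were scaled by TMM in edgeR 4.0.16 (R 4.3.3), and intervals were computed in SciPy 1.17.1. A gene was tested if its mean was at least 1 CPM. With 1 library per group no p-value was computed, and the calculation was checked on simulated data. A count of 0 allows up to 3 counts, or 0.151 CPM (si-NC) and 0.207 CPM (si-SRSF2). Lengths, UTRs and coordinates came from GENCODE release 44, promoters from RefSeq and siRNA sequences from the supplement. Named genes were SRSF2, the 10 members and, from each further list, the genes tested that changed at least 1.5-fold and the 3 most abundant. The results for 2 genes are not reported here. Members and lists were chosen with earlier results of these data known. Alternatives were scaling by upper-quartile factors, by total counts, by the size factors of DESeq2 1.42.0 or by TMM without mitochondrial and the 20 most abundant genes, adding 0.1 or 2 CPM, filtering at 5 CPM or not at all, a 2-fold rule, and other transcript lengths.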

Additional observations from a re-analysis of the deposited data

How the results depend on the processing

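No paired analysis was possible because there was 1 library in each group. Under all scalings and pseudocounts, SRSF2 stayed between -1.003 and -0.973 and every member kept the sign of its log2 ratio. The median of the members ran from 0.06 to 0.10, and 5 members higher and 4 lower by interval were counted under every scaling. Among all genes tested, upper-quartile factors gave 3020 above and 2991 below by interval, in place of 2646 and 3366, so the excess of lower genes was not seen with that scaling. Counts at 1.5-fold moved with the filter, the pseudocount and the fold, which change how many low genes are tested or pass. With 2 CPM added, 254 genes were higher and 220 lower, in place of 527 and 444. Without a filter the counts were 1262 and 837, with a minimum of 5 CPM they were 202 and 237, and at 2-fold 107 and 63. Among the members, 1 was at least 1.5-fold higher with a minimum of 5 CPM, since DUSP4 was no longer tested, and 0 at 2-fold. The medians of 3 lists lay near 0 and changed sign under some settings, the other Sprouty and SPRED genes (-0.02 to 0.01), the other ETS factors (-0.01 to 0.01) and the brakes (-0.003 to 0.06). Depth limits DUSP4 most among the members, and how far repeated transfections would differ is not known.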

Other observations

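A listed value of 0 was checked against the neighbours of the gene, a check chosen after the values were seen. IER3, an immediate early gene reported to respond to ERK, was listed at 0 in both libraries. Of its 8 nearest protein-coding genes, 7 were also listed at 0 in both, among them the tubulin gene TUBB and FLOT1, and VARS2 had 0 and 1 counts. HRAS had 3 counts (si-NC) and 0 counts (si-SRSF2), and its 8 nearest protein-coding genes ranged from LRRC56 with 2 and 4 counts and LMNTD2 with 4 and 4, through ANO9 (11 and 8), PHRF1 (16 and 7), RNH1 (26 and 14), RASSF7 (96 and 46) and PTDSS2 (223 and 166), to SIGIRR with 702 and 518. The cause was not tested, and for IER3 it can be said only that it is listed at 0. For each of the 10 ERK output genes at least 1 nearby protein-coding gene had over 1000 counts in si-NC, from 1564 near SPRED1 to 24003 near PHLDA1.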
